A study of Mus musculus with 6 samples.

Results

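The genes of the NF-κB subunits and of their inhibitors were followed in hippocampal RNA of mice with and without chronic cerebral hypoperfusion. The 10 members were the 5 subunit genes Rela, Rel, Relb, Nfkb1 and Nfkb2, the IκB genes Nfkbia and Nfkbie, the nuclear IκB genes Nfkbiz and Bcl3, and Tnfaip3, which encodes the ubiquitin-editing enzyme A20. They were picked by symbol from 54752 genes in the count tables, each symbol matched 1 identifier, and all 10 passed the filter on low counts that left 18617 tested genes. All mice were wild-type C57BL/6 males (the C57BL/6 J substrain in the study's methods). The study's methods call the mice adult. The labels give 14 weeks under the tag time, which is not the time since surgery (3 weeks), and do not call it an age. The 3 sham mice had the neck operation without coils. In the 3 BCAS mice (bilateral carotid artery stenosis) a microcoil narrowed each common carotid artery, the tighter coil being on the right. Total RNA of the entire right hippocampus was taken 3 weeks after surgery and gave 1 library per mouse, with 29652456 to 35607098 counted reads. The tissue holds neurons, glia, vessels and blood-borne cells together, so a level of a gene is an average over them.

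NF-κB is a family of dimeric transcription factors that rest in the cytoplasm bound to IκB proteins. In the canonical pathway, receptors for TNF, IL-1 and microbial products activate the IKK kinase complex, IκBα is degraded, and dimers such as RelA with p50 (the processed product of Nfkb1) enter the nucleus. In the non-canonical pathway, receptors such as the lymphotoxin β receptor stabilise the kinase NIK, p100 (the product of Nfkb2) is processed to p52, and RelB with p52 enters the nucleus. Several of the inhibitors are themselves transcribed under NF-κB, which makes them feedback genes. In the brain the pathway is best known for inflammatory gene expression in microglia and astrocytes. Messenger RNA levels of the subunits say nothing of their activation, which happens on the proteins.

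The sequence just before the start site is shown for 5 members because κB sites near start sites are a known route of such feedback. Promoter windows of RefSeq (build GRCm38.p6) were found for 7 of the 10 members, in 10 windows, and Relb, Nfkb1 and Nfkbiz were not matched. Each window covers the 250 bases before a start site. The capitals below mark matches to the NF-κB consensus, a motif of 10 bases searched on both strands, and the lines run 5′ to 3′ on the strand of the gene and stop where an annotated exon begins. A run of capitals longer than the motif holds overlapping matches. The stretches printed are chr19:46304487-46304736 on the plus strand for Nfkb2, chr12:55492648-55492897 on the minus strand for Nfkbia, chr11:23770971-23771219 on the minus strand for Rel, chr17:45555450-45555699 on the plus strand for Nfkbie and chr7:19822771-19823005 on the minus strand for Bcl3.
Nfkb2: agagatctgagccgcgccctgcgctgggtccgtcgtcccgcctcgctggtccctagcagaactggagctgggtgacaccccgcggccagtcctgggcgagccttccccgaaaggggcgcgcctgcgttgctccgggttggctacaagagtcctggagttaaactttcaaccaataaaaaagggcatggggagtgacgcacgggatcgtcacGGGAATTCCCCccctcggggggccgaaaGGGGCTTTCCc
Nfkbia: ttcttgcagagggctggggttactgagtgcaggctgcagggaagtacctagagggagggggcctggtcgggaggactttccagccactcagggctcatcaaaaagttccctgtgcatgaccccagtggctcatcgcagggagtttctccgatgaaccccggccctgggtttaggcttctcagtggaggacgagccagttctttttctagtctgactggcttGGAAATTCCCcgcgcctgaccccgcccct
Rel: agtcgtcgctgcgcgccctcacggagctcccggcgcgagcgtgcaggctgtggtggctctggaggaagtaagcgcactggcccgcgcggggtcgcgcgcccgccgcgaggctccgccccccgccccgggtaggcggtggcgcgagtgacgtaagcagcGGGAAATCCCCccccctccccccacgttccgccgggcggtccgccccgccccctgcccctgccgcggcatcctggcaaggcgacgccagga
Nfkbie: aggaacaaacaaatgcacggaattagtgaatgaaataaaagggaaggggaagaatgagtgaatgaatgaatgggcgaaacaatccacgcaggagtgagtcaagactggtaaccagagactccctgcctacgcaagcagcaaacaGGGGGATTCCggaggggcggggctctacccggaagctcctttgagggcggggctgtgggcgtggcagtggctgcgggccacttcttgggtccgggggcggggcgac
Bcl3: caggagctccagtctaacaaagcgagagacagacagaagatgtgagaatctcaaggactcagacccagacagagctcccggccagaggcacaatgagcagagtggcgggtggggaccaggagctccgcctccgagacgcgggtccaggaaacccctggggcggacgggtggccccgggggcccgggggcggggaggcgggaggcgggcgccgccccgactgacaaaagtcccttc

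The consensus was matched in 7 of the 10 windows, which belong to 5 members (Rel, Nfkb2, Nfkbia, Nfkbie and Tnfaip3), and in 3.9% of 32851 windows of the same length over all genes. Outside annotated exons it was matched in 5 windows of 4 members, since the matches of Tnfaip3 and of the third Nfkb2 window, which overlaps the second, lie in exons. In the first Nfkb2 window GGGAATTCCC begins 39 bases and GGGGCTTTCC 11 bases before the start site. In Nfkbia the match GGAAATTCCC begins 29 bases before it, in Rel GGGAAATCCC 92 bases before it, and in Nfkbie GGGGGATTCC 106 bases before it. The motif TTCNNNGAA, bound by STAT factors and also searched on both strands, was matched once, in the first Nfkb2 window, and in 7.02% of all windows. The windows of Rela and Bcl3 and the second of Tnfaip3 held no match to the consensus, which says only that these letters are not in these windows. These matches are descriptions of sequence, and binding was not measured.

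All 10 members were higher in BCAS mice than in sham mice at an adjusted P under 0.05 (edgeR quasi-likelihood test, Benjamini-Hochberg adjustment over all tested genes). Of all tested genes 18.0% were called higher and 13.2% lower. The lower share was 7.61%, 7.39% and 6.58% without sham mouse 1, 2 and 3, and the higher share then 12.9%, 13.7% and 13.2%. The log2 fold changes ran from 0.54 for Nfkbiz to 3.88 for Bcl3, with a median of 0.92 against 0.018 over all tested genes. With the study's additional threshold of an absolute log2 fold change above 1, 4 members were DEGs (Bcl3, Nfkb2, Nfkbie and Nfkb1), where 8.47% of all tested genes were up-regulated DEGs. For each of the 10 members every BCAS mouse lay above every sham mouse, which held for 25.3% of all tested genes. The summed level of the members was 102.5 to 109 CPM (read counts scaled to a common library size after TMM normalization) in sham mice and 182.5 to 247 CPM in BCAS mice. With glmTreat, which asks for a change beyond that threshold, 2 members passed, Bcl3 and Nfkb2. Of all tested genes 4.32% passed it as higher and 0.0752% as lower. Without BCAS mouse 3 the log2 fold change of Nfkb1 was 0.96, and Rel exceeded 1 without BCAS mouse 1 (1.06) or BCAS mouse 2 (1.004). Tnfaip3 exceeded 1 without sham mouse 1 (1.02), without BCAS mouse 1 (1.04) or with library totals (1.002).

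**Figure D1:**
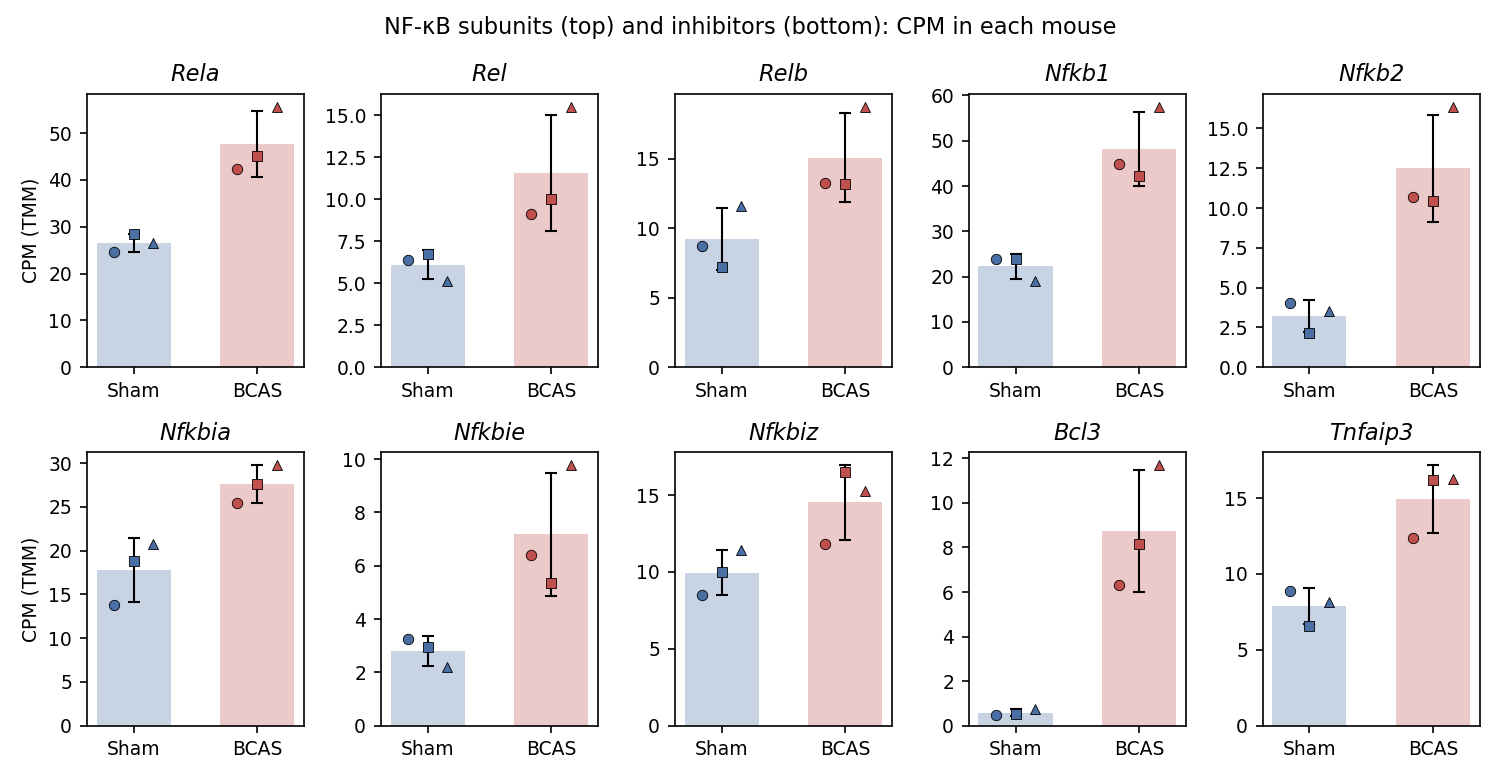
CPM of the 5 subunit genes (top) and the 5 inhibitor genes (bottom) in each mouse, with circle, square and triangle for mouse 1, 2 and 3, bars for the mean of 3 mice and whiskers for the SD. In each panel the 3 BCAS mice lie above the 3 sham mice, with the narrowest gap for Nfkbiz.

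Among the subunits, Rela encodes p65, which carries the transactivation domain of the canonical dimer. It lies on chromosome 19 of mm10 (5637483 to 5648130, plus strand). Its level was 24.6, 28.5 and 26.5 CPM in sham mice 1 to 3 and 42.3, 45.1 and 55.7 CPM in BCAS mice 1 to 3. The groups were 13.8 CPM apart at their nearest mice. On the log2 scale it rose by 0.85 ± 0.12 (fold change and its standard error, edgeR adjusted P = 0.000998).

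Nfkb1, which encodes p105 and its product p50, lies on chromosome 3 (135584655 to 135691547, minus strand). It had 23.9, 23.9 and 19.1 CPM in sham mice and 44.8, 42.2 and 57.5 CPM in BCAS mice. Sham mouse 3 was the lowest and BCAS mouse 3 the highest. Its log2 fold change of 1.11 ± 0.14 (SE, edgeR adjusted P = 0.000568) came second among the subunits.

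Nfkb2, which encodes p100 and p52 of the non-canonical pathway, lies on chromosome 19 (46304737 to 46312090, plus strand). Its level was 4.01, 2.12 and 3.53 CPM in sham mice and 10.7, 10.4 and 16.4 CPM in BCAS mice. The lowest BCAS mouse exceeded the highest sham mouse by 6.43 CPM. Among the subunits it rose most, by 1.95 ± 0.27 (log2 fold change and SE, edgeR adjusted P = 0.000922). Nfkb2 shares 4 exon bases with Psd, an abundant gene on the opposite strand, and reads that reached both were assigned to neither gene.

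Relb, the partner of p52, lies on chromosome 7 (19606217 to 19629438, minus strand). Its level was 8.71, 7.24 and 11.6 CPM in sham mice and 13.2, 13.2 and 18.8 CPM in BCAS mice. Sham mouse 3 came within 1.56 CPM of the nearest BCAS mice. Relb rose by 0.71 ± 0.21 (log2 fold change and SE, edgeR adjusted P = 0.0293).

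Rel encodes c-Rel, a subunit best known from lymphocytes and myeloid cells, and lies on chromosome 11 (23736847 to 23770970, minus strand). It had 6.40, 6.76 and 5.16 CPM in sham mice and 9.14, 10.01 and 15.5 CPM in BCAS mice. BCAS mouse 3 was well above the other two. Its rise was 0.92 ± 0.22 (log2 fold change and SE, edgeR adjusted P = 0.0128).

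Among the inhibitors, Nfkbia encodes IκBα, the main cytoplasmic inhibitor and a classical feedback gene, and lies on chromosome 12 (55489410 to 55492647, minus strand). Its level was 13.8, 18.9 and 20.8 CPM in sham mice and 25.5, 27.6 and 29.8 CPM in BCAS mice. Sham mice spread more (SD 3.62 CPM) than BCAS mice (SD 2.16 CPM), and the groups stayed apart. A rise of 0.63 ± 0.15 was fitted (log2 fold change and SE, edgeR adjusted P = 0.0139).

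Nfkbie, which encodes IκBε, lies on chromosome 17 (45555703 to 45563169, plus strand). It had 3.25, 2.96 and 2.19 CPM in sham mice and 6.40, 5.37 and 9.78 CPM in BCAS mice. BCAS mouse 3 was again the highest, and the groups were 2.12 CPM apart. Nfkbie rose by 1.36 ± 0.26 (log2 fold change and SE, edgeR adjusted P = 0.00514), and whether this differs from the rise of Nfkbia was not tested.

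Bcl3 encodes a nuclear IκB protein that binds p50 and p52 homodimers on DNA and can act as a coactivator, and it lies on chromosome 7 (19808462 to 19822770, minus strand). It was nearly silent in sham mice, with 16, 18 and 26 reads (0.472, 0.539 and 0.758 CPM), and had 205, 246 and 365 reads in BCAS mice (6.31, 8.16 and 11.7 CPM). This was the largest rise of the 10 members, 14.7-fold or 3.88 ± 0.31 on the log2 scale (SE, edgeR adjusted P = 4.86e-05). Bcl3 shares 6.5% of its exon bases with Gm16175 on the opposite strand, which had at most 4 counts in any library, and reads on that stretch were not assigned to either gene.

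Nfkbiz, which encodes IκBζ, a nuclear regulator of secondary response genes, lies on chromosome 16 (55811375 to 55838899, minus strand). It had 8.47, 9.997 and 11.4 CPM in sham mice and 11.8, 16.5 and 15.3 CPM in BCAS mice. BCAS mouse 1 exceeded sham mouse 3 by only 0.42 CPM, the smallest gap of all members. With 0.54 ± 0.16 its rise was the smallest (log2 fold change and SE, edgeR adjusted P = 0.0346).

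Tnfaip3, whose product A20 dampens signalling upstream of IKK, lies on chromosome 10 (19000910 to 19015657, minus strand). Its level was 8.88, 6.55 and 8.16 CPM in sham mice and 12.4, 16.2 and 16.3 CPM in BCAS mice. Tnfaip3 rose by 0.93 ± 0.16 (log2 fold change and SE, edgeR adjusted P = 0.00339). BCAS mice 2 and 3 were nearly equal, and BCAS mouse 1 stood nearest to the sham mice.

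**Figure D2:**
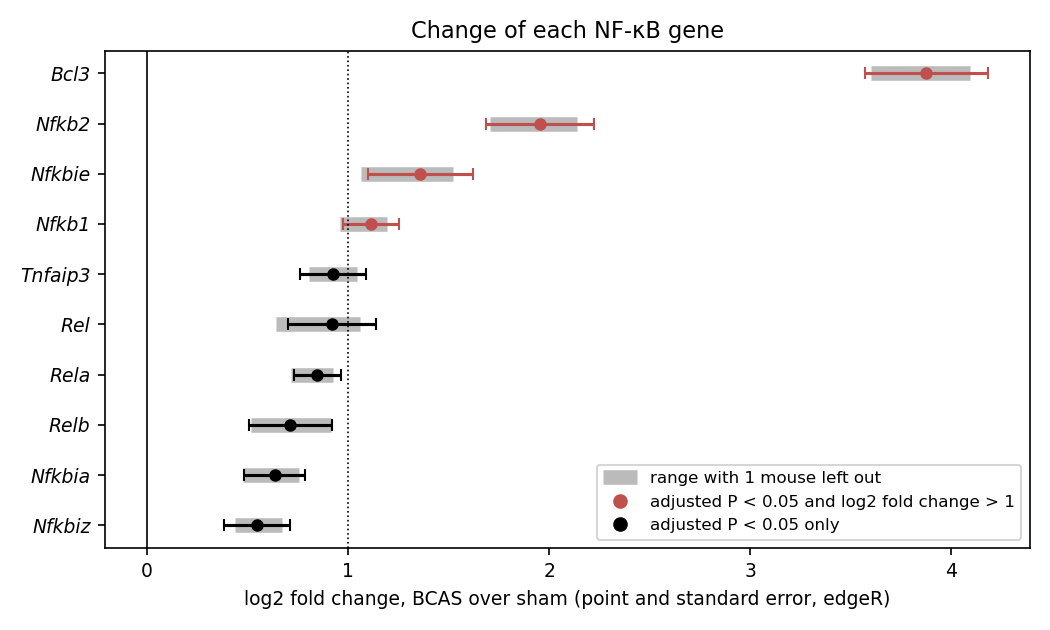
Log2 fold change of BCAS over sham for each member, with its standard error (whiskers) and the range obtained with each mouse left out in turn (grey bars); the dotted line marks a log2 fold change of 1. Bcl3 stands at 3.88 and Nfkb2 at 1.95, while 6 members lie below 1.

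With a mouse left out, so that 5 libraries entered the fit, 8 to 10 members were called by edgeR, and 3 members lost their call in some of these fits. Of all tested genes 12.9% to 18.6% were called higher and 6.58% to 16.1% lower in these fits. Relb was not called without sham mouse 1 (adjusted P = 0.101), sham mouse 2 (adjusted P = 0.0972) or BCAS mouse 3 (adjusted P = 0.0942). Nfkbiz was not called without sham mouse 1 (adjusted P = 0.121), sham mouse 2 (adjusted P = 0.0917), BCAS mouse 2 (adjusted P = 0.0847) or BCAS mouse 3 (adjusted P = 0.0929), and Rel was not called without sham mouse 3 (adjusted P = 0.0578). Apart from glmTreat, the highest adjusted P over the alternatives was 0.101 for Relb, 0.121 for Nfkbiz and 0.0578 for Rel, and at most 0.0445 for the other 7 members. Every log2 fold change stayed above 0 in each of these fits, with 0.52 to 0.91 for Relb, 0.44 to 0.67 for Nfkbiz and 0.64 to 1.06 for Rel over the fits with a mouse left out.

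BCAS mouse 3 had the highest level for 9 of the 10 members, with Nfkbiz in BCAS mouse 2 as the exception. Among all genes called higher in BCAS mice, 78.0% had their highest level in BCAS mouse 3, a share near that of the members. On the log2 scale the median member stood 0.67, 0.85 and 1.21 above the sham mean in BCAS mice 1, 2 and 3.

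Levels of different genes were compared per length, as CPM per kilobase of exon. The length joins all annotated exons of a gene and can exceed that of the expressed transcript, so the order is approximate. It was 12061 bases for Nfkb1 and 2716 bases for Rela. Without division by length, their means were 22.3 and 26.5 CPM in sham mice and 48.2 and 47.7 CPM in BCAS mice. On the scale per kilobase Nfkbia (11.1 ± 2.25, SD, n = 3) and Rela (9.77 ± 0.704) were the highest in sham mice, and their mice overlapped. Relb (2.37 ± 0.575), Nfkbiz (1.98 ± 0.292) and Nfkb1 (1.85 ± 0.227) followed, each overlapping with the next. A lower step held Tnfaip3 (1.09 ± 0.165), Nfkb2 (0.980 ± 0.298), Nfkbie (0.919 ± 0.180) and Rel (0.818 ± 0.113), where neighbours again overlapped. Bcl3 was the lowest, at 0.238 ± 0.0604 CPM per kilobase, below every other member in every sham mouse.

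In BCAS mice Rela (17.6 ± 2.60, SD, n = 3) and Nfkbia (17.1 ± 1.34) were still the highest on the scale per kilobase. Nfkb1 (3.997 ± 0.679), Relb (3.88 ± 0.823), Nfkb2 (3.80 ± 1.02) and Bcl3 (3.52 ± 1.11) came next and overlapped from neighbour to neighbour. Bcl3 also overlapped with Nfkbiz below it, so its rank of 6 in BCAS mice is not resolved from its neighbours. Nfkbiz (2.90 ± 0.484), Nfkbie (2.36 ± 0.757), Tnfaip3 (2.07 ± 0.309) and Rel (1.55 ± 0.463) were the lowest, each overlapping with the next.

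**Figure D3:**
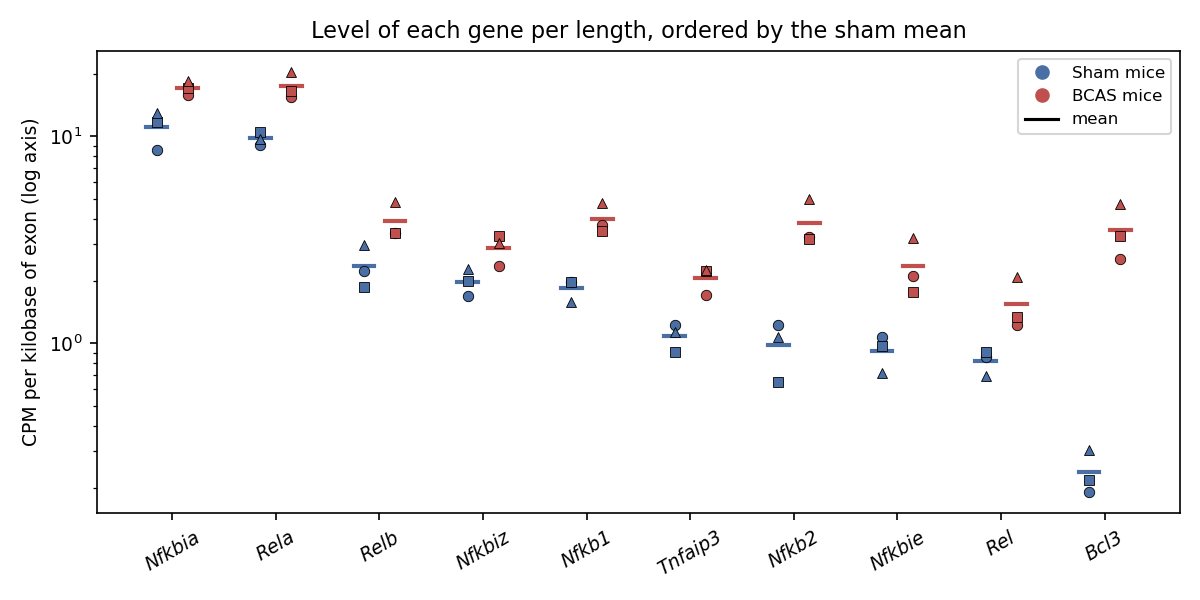
CPM per kilobase of exon of each member on a log axis, ordered by the sham mean, with 1 point per mouse (circle, square and triangle for mouse 1, 2 and 3) and a line for the group mean. Rela and Nfkbia lead in both groups, and Bcl3 moves from 0.238 to 3.52.

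Within the summed per-kilobase level of the 5 subunits, Nfkb2 took 7.94%, 4.07% and 6.67% in sham mice and 11.96%, 11.3% and 13.4% in BCAS mice, with no overlap. Rela took 61.9% ± 3.67 (SD, n = 3) in sham mice and 57.2% ± 2.05 in BCAS mice, with overlapping mice. The shares of Relb, Nfkb1 and Rel also overlapped between the groups. The size of each share depends on the exon lengths used.

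Whether members changed unequally was examined by ratios within a library, which do not depend on normalization, for 4 ratios. The log2 ratio of Relb plus Nfkb2 to Rela plus Nfkb1, a comparison of non-canonical with canonical subunits, was -1.93, -2.48 and -1.59 in sham mice and -1.86, -1.89 and -1.69 in BCAS mice. These values overlapped, with a difference of 0.19 (exact two-sided permutation test, P = 0.7), and the difference was -0.053 without sham mouse 2. With each gene's counts divided by its exon length before summing, the difference was 0.32 (exact permutation P = 0.3). The log2 ratio of Nfkbia plus Nfkbie to Rela plus Rel, inhibitors against the subunits they hold, was -0.67 ± 0.20 (SD, n = 3) in sham mice and -0.76 ± 0.080 in BCAS mice (exact permutation P = 0.7). Without sham mouse 3 the difference of -0.085 became 0.020.

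The other ratios were chosen after the values were seen and set Nfkb2 and Bcl3, the members that rose most, over other members. Their P values, also after adjustment, do not allow for this choice, so they are descriptions only. The log2 ratio of Nfkb2 to Nfkb1 was -2.57, -3.49 and -2.44 in sham mice and -2.07, -2.02 and -1.81 in BCAS mice, higher in 3 of 3 BCAS mice than in any sham mouse. The difference was 0.87 (exact permutation P = 0.1, adjusted P = 0.2 over the 4 ratios). The log2 ratio of Bcl3 to the sum of the other 9 members rose from -7.52 ± 0.31 to -4.55 ± 0.24 in value (SD, n = 3 each), a difference of 2.97 (exact permutation P = 0.1, adjusted P = 0.2). A P of 0.1 is the smallest that 3 mice against 3 allow, so no ratio could pass a threshold of 0.05.

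Of the other IκB family genes, neither Nfkbib (IκBβ) nor Nfkbid (IκBNS) was called by edgeR, limma-voom or DESeq2, and 0 of the 2 had an unadjusted P under 0.05 with edgeR. The level of Nfkbib was 20.7 ± 1.02 CPM in sham and 21.4 ± 3.07 CPM in BCAS mice (mean ± SD, n = 3 each), with a log2 fold change of 0.048 ± 0.12 (SE). For Nfkbid the levels were 2.71 ± 0.779 and 3.96 ± 0.275 CPM, and the log2 fold change was 0.55 ± 0.25 (SE, edgeR adjusted P = 0.127), although the groups did not overlap. A change of Nfkbid of the size seen in Nfkbiz was thus not told apart from 0 at this depth and spread.

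The further lists are read against the 18.0% of all tested genes called higher and the 13.2% called lower. A gene that passed the filter on low counts only through BCAS mice could hardly be called otherwise than higher, so such genes are counted apart and given without a P. Of 28 genes of canonical activation, all tested, 14 rose and 2 fell, with 12 not called and a median log2 fold change of 0.39, and 1 of those that rose passed the filter only through BCAS mice. The core of the IKK complex was not called. Chuk (IKKα) had a log2 fold change of 0.22 (edgeR adjusted P = 0.0859), Ikbkb (IKKβ) of 0.28 (edgeR adjusted P = 0.0619) and Ikbkg (NEMO) of -0.056 (edgeR adjusted P = 0.592). Large rises were seen in an adaptor and a receptor-proximal kinase. Card9, an adaptor of C-type lectin receptors in myeloid cells, rose from 2.56 ± 0.168 to 10.3 ± 2.35 CPM (SD, n = 3 each; log2 fold change 2.004, edgeR adjusted P = 1.48e-04). Irak4, the kinase that binds MyD88, rose from 2.11 ± 0.653 to 7.84 ± 2.21 CPM (log2 fold change 1.89, edgeR adjusted P = 0.00167). The genes that fell, named for their direction, were Ube2n (log2 fold change -0.46) and Btrc (-0.31), which encode a ubiquitin-conjugating enzyme and the F-box protein that recognises phosphorylated IκB. Btrc was not called without sham mouse 1 or sham mouse 2.

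Of 16 genes of non-canonical activation 13 were tested, 9 rose and none fell by edgeR, and 2 of those that rose (Ltb and Tnfsf11) passed the filter only through BCAS mice. Map3k14, which encodes NIK, rose from 5.51 ± 0.611 to 13.5 ± 1.23 CPM (SD, n = 3 each; log2 fold change 1.29, SE 0.14, edgeR adjusted P = 2.62e-04). Traf3, an adaptor that keeps NIK low, had a log2 fold change of -0.023 ± 0.11 (SE, edgeR adjusted P = 0.895). The lymphotoxin β receptor Ltbr rose from 8.76 ± 1.23 to 28.8 ± 3.68 CPM (log2 fold change 1.72, edgeR adjusted P = 6.29e-05), and its ligand gene Ltb had 0.423 ± 0.223 CPM in sham and 1.71 ± 0.311 CPM in BCAS mice. Birc3, which encodes the ubiquitin ligase cIAP2, rose from 2.32 ± 0.294 to 8.31 ± 0.609 CPM (log2 fold change 1.84, edgeR adjusted P = 1.15e-04). Birc3 was listed with Traf3 among the regulators of NIK, so its rise cannot be read as a rise of an activator. Tnfsf13b, which encodes BAFF, rose from 1.57 ± 0.144 to 4.69 ± 1.51 CPM (log2 fold change 1.58, edgeR adjusted P = 0.00313). The 3 genes not tested, Lta, Cd40lg and Tnfsf14, had at most 11 counts in any library.

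Of 20 other negative regulators 19 were tested, 7 rose and 2 fell, with a median of 0.12, and the 2 of 19 that fell are no larger a share than over all tested genes. Nlrc5, known as the transactivator of MHC class I genes and described as an inhibitor of IKK, rose from 1.36 ± 0.302 to 13.0 ± 3.30 CPM (SD, n = 3 each; log2 fold change 3.25, edgeR adjusted P = 4.05e-05). Zc3h12a, which encodes the ribonuclease Regnase-1 that degrades cytokine transcripts, rose from 1.14 ± 0.231 to 6.32 ± 1.36 CPM (log2 fold change 2.46, edgeR adjusted P = 1.59e-04). Nlrc3 rose from 0.958 ± 0.427 to 4.73 ± 2.38 CPM (log2 fold change 2.30, edgeR adjusted P = 0.00615). The genes that fell, named for their direction, were the deubiquitinase gene Cyld (log2 fold change -0.40, edgeR adjusted P = 0.00530) and Rnf11 (-0.36, edgeR adjusted P = 0.0386). Cyld kept its call in every fit but glmTreat. Rnf11 lost it in 5 of the 6 fits with a mouse left out (all but the one without BCAS mouse 2), with library totals and with the replicate block, with an adjusted P of up to 0.131.

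Of 32 textbook targets of NF-κB 24 were tested, 18 rose and 2 fell. Of the 18, 8 passed the filter only through BCAS mice (Tnf, Il1b, Ccl2, Ccl3, Ccl4, Ccl5, Cxcl10 and Lcn2), and of the other 16 tested genes 10 rose. Many of these genes also respond to interferons or other factors, so the list is no measure of NF-κB activity. Of 16 cytokine and chemokine genes on the list 9 were tested, 7 of them only through BCAS mice. Tnf was read 0, 0 and 5 times in the sham libraries and 33, 44 and 52 times in the BCAS libraries. Il1b had 0.394 ± 0.247 and 2.12 ± 1.47 CPM (SD, n = 3 each), with overlapping groups. Il6 was not tested, with 0, 0 and 1 reads in sham libraries and 10, 5 and 4 reads in BCAS libraries. Pooled over the mice of a group this is a ratio of 20.6 (95% exact interval 3.27 to 855, counting error only). Both mates of a fragment could be counted, so the interval is too narrow even for counting error, and it leaves out variation between mice.

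Among the targets, the chemokine gene Ccl3 had 3, 2 and 1 reads in sham libraries and 453, 522 and 699 reads in BCAS libraries. Ccl4 had 0.127 ± 0.143 CPM in sham and 6.36 ± 1.89 CPM in BCAS mice (SD, n = 3 each), and Lcn2, which encodes lipocalin 2, 0.361 ± 0.370 and 18.6 ± 11.7 CPM. Ccl3, Ccl4 and Lcn2 passed the filter only through BCAS mice, so only their levels are given. The targets that fell, named for their direction, were Ptgs2, which encodes cyclooxygenase 2 and is also expressed by hippocampal neurons (log2 fold change -0.89, edgeR adjusted P = 0.0282), and Sod2, which encodes the mitochondrial superoxide dismutase (-0.28, edgeR adjusted P = 0.0339). Neither was called when any of the sham mice was left out. Ptgs2 also lost its call without BCAS mouse 2, and Sod2 without BCAS mouse 1 or 3, with library totals and with the replicate block.

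**Figure D4:**
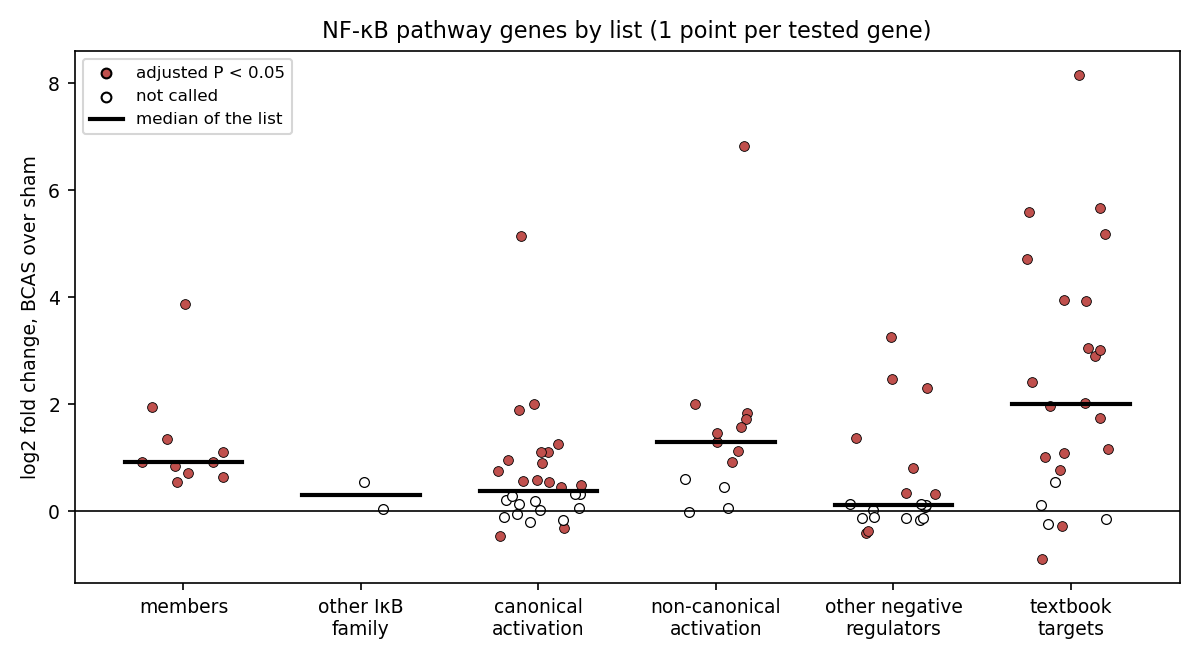
Log2 fold change of BCAS over sham for every tested gene of the 10 members and of 5 further lists, with filled points for an adjusted P under 0.05, open points otherwise and a line for the list median. The medians are 0.92 for the members, 0.39 for canonical and 1.29 for non-canonical activation, 0.12 for other negative regulators and 1.996 for targets, and without the 1 canonical, 3 non-canonical and 8 target genes that passed the filter only through BCAS mice they are 0.32, 1.21 and 1.05; the highest points, Ccl3 and Tnfsf11, are fitted values of genes with 3 or fewer counts in each sham mouse.

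Markers of several cell types, but not of all, differed between the groups. All 12 microglia markers rose, none was at 0 in any library, and their summed level was 422 to 449.5 CPM in sham mice and 2900 to 4790 CPM in BCAS mice, highest in BCAS mouse 3. Of 8 astrocyte markers 7 rose (4412 to 4710 against 9429 to 9973 CPM, and without Gfap 4065 to 4283 against 5977 to 6049 CPM), of 10 neuron markers 7 fell (11350 to 11980 against 6080 to 8715 CPM), of 8 endothelial markers 4 rose (272 to 297 against 358 to 401 CPM), and of 8 oligodendrocyte markers none was called by edgeR. Of 8 T cell markers 7 rose, 6 of them tested only through BCAS mice, at low levels (2.63 to 3.85 against 10.7 to 12.3 CPM). Of 10 monocyte and neutrophil markers 5 were tested and 3 rose, 2 of them tested only through BCAS mice (1.05 to 2.51 against 6.40 to 13.4 CPM), and the neutrophil gene Ly6g had no count in any library. Of 8 B cell markers 4 were tested and 2 rose, Ighm and Cd79b, the latter tested only through BCAS mice. Their sum was 11.7 to 23.5 against 49.0 to 78.1 CPM, and without Ighm 0.991 to 1.44 against 2.39 to 3.50 CPM. Of 8 dendritic cell markers 7 were tested and 2 rose, Siglech, which microglia also express, and Xcr1, tested only through BCAS mice. Their sum was 28.6 to 34.2 against 75.3 to 110 CPM, and without Siglech 15.7 to 19.9 against 17.1 to 20.4 CPM. In such bulk tissue a change in cell number and a change in RNA per cell cannot be told apart, and the part of cell composition in the rise of the members was not tested.

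Set over the summed level of the 12 microglia markers in the same library, 9 of the 10 members were lower in every BCAS mouse than in every sham mouse, as were 95.2% of all tested genes, since the marker sum itself rose 8.27-fold. Their log2 ratios differed by -1.04 (Nfkb2) to -2.47 (Nfkbiz). Bcl3 was the exception, with log2 ratios of -9.89, -9.61 and -9.19 in sham mice and -8.84, -8.61 and -8.68 in BCAS mice, a difference of 0.86. Of all tested genes 1.07% lay above in this way. The log2 fold changes of the microglia markers ran from 1.54 to 3.95 with a median of 3.04, so that of Bcl3 lay within their range, below that of C1qa.

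**Figure D5:**
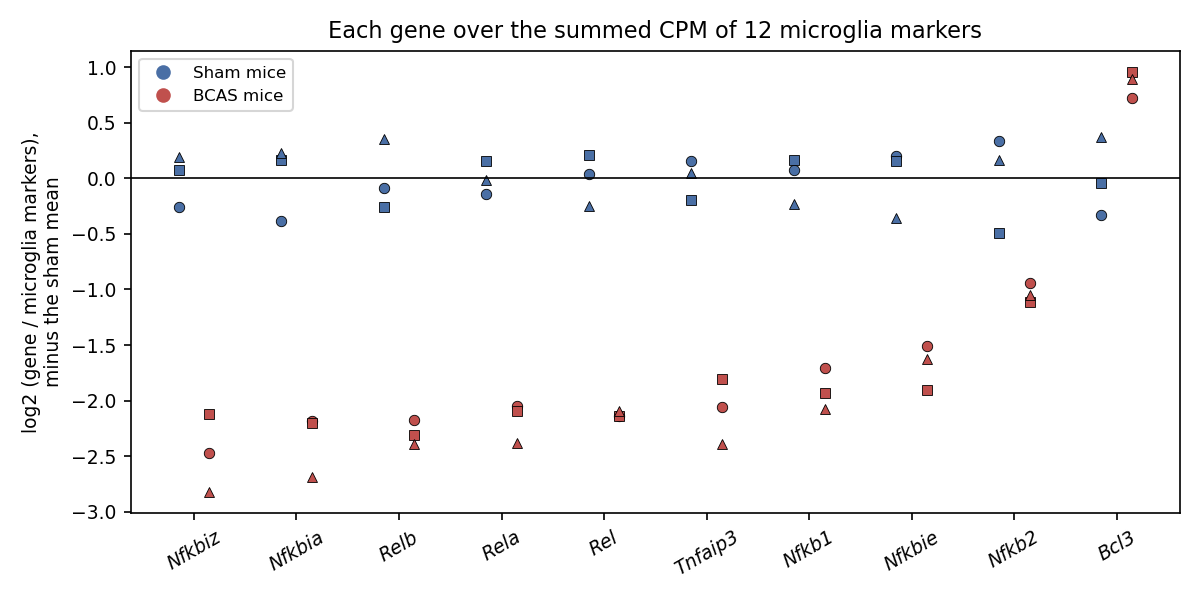
Log2 ratio of each member to the summed CPM of 12 microglia markers in the same library, minus the sham mean, with 1 point per mouse (circle, square and triangle for mouse 1, 2 and 3). Bcl3 is the only member whose BCAS mice lie above 0, with a difference of 0.86, and the other 9 lie lower in BCAS mice by 1.04 to 2.47.

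The tested gene outside the family whose pattern was nearest to each member was found over the 6 libraries, as the Euclidean distance between centred log2 CPM values among 15621 genes with a mean of at least 1 CPM. From the smallest distance up, the nearest were Lhfpl2 for Nfkb1 (0.043), Card19 for Rela (0.064), Gm3362 for Nfkbia (0.124), Rcn1 for Nfkbiz (0.126) and Tmem45a for Relb (0.135). Larger distances were found for Tubb6 with Rel (0.210), Epsti1 with Bcl3 (0.211), Irak4 with Nfkb2 (0.213), Batf3 with Nfkbie (0.225) and Slc2a10 with Tnfaip3 (0.239). With 3 mice a group, most of such likeness is the difference between the groups.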

How the data were processed

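Hippocampal RNA of 3 sham and 3 BCAS mice was sequenced in paired-end mode, with 1 library per mouse. The authors trimmed reads, aligned them to mm10 with HISAT2 and deposited raw counts per gene. Per the file headers, featureCounts 2.0.3 (1.6.3 in the submitters' processing notes) counted each mate as a read on exons of GENCODE M20, without strand, leaving out reads that aligned to several places or genes. Symbols came from the Ensembl identifiers, and 29 of 54752 had none. Groups and replicate numbers follow the labels.

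Genes were kept by filterByExpr, normalized by TMM and tested in edgeR 4.0.16 (limma 3.58.1, DESeq2 1.42.0, R 4.3.3) without a replicate block. P values were adjusted over all tested genes, and called means an adjusted P under 0.05. Tools were tested on simulated data. A level of 3 counts per library (0.0875 to 0.0995 CPM) was taken as the limit of detection. Genes whose sham libraries alone would fail the filter were identified after the values were seen. Single ratios were tested by exact permutation. The interval given for Il6 covers counting error only and takes the mates of a fragment as independent reads. The labels do not say whether the libraries of a group came from separate litters or cages.

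The members and gene lists were chosen with earlier results of these data known. Named genes are the members, the 3 called genes with the largest change in each further list among those with a mean of at least 1 CPM, 12 genes named whatever their values, such as Nfkbib, Ikbkb, Map3k14 and Tnf, genes said to be named for their direction, and genes too low to test. Genes that passed the filter only through BCAS mice (such as Tnfsf11, Ccl2, Ccl5 and Cxcl10) and single marker genes fall outside this rule and were named after their values were seen, and overlapping and nearest genes are named as such. 1 gene that the rule names is not reported here. Alternatives were DESeq2, limma-voom, RLE, library totals, 2 other filters, glmTreat, a fold threshold, a replicate block and leaving out each mouse.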

Additional observations from a re-analysis of the deposited data

How the results depend on the processing

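All 10 members were called higher with DESeq2, limma-voom, RLE normalization, library totals, either other filter and the replicate block (10 members). Over all genes given an adjusted P, 10.9% to 20.7% were called higher in these fits. With the block the negative regulators called were 6, not 9. Same-numbered mice did not deviate together (correlations of residuals 0.036, -0.314 and -0.158), and the block moved the calls over all genes from 5819 to 4532. Library totals moved the median log2 fold change of all genes from 0.018 to 0.095. With an absolute log2 fold change above 1 required, calls were 4 members, 6 canonical genes, 8 non-canonical genes, 4 negative regulators and 17 targets. Of all tested genes 8.47% were then called higher. With glmTreat calls were 2 members, 3 canonical genes, 3 non-canonical genes, 2 negative regulators and 12 targets, as the test demands a larger change. The share over all tested genes was then 4.32% higher and 0.0752% lower. With a mouse left out, calls were 8 to 10 members, 11 to 18 canonical, 7 to 9 non-canonical, 6 to 8 negative regulators and 16 to 21 targets. Of all tested genes 12.9% to 18.6% were then called higher and 6.58% to 16.1% lower. The log2 ratio of non-canonical to canonical subunits then differed by -0.053 to 0.39, turning sign without sham mouse 2, and that of Nfkbia plus Nfkbie to Rela plus Rel by -0.18 to 0.020, turning sign without sham mouse 3; the cause was not tested. Depth limits Il6 and Tnf, which had 5 or fewer counts in each sham mouse.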

Other observations

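Of the textbook targets too low to test, the endothelial adhesion gene Sele had no read in sham libraries and 2, 13 and 11 reads in BCAS libraries. Cxcl1 had 8, 2 and 8 reads in sham libraries and 8, 24 and 38 reads in BCAS libraries. Cxcl2 had 0, 4 and 2 reads in sham libraries and 0, 30 and 4 reads in BCAS libraries, so BCAS mouse 2 alone stood high. Tnip3, which encodes an A20-binding inhibitor, had no read in sham libraries and 6, 5 and 2 reads in BCAS libraries. Il12b had no read in sham libraries and 0, 3 and 3 reads in BCAS libraries, Csf2 had 2 reads in BCAS mouse 3 alone, and Csf3 had 1 read in sham mouse 1 and 1 in BCAS mouse 2. Ccl20 had no count in any library.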
